A study of Mus musculus with 14 samples.

Results

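Motile cilia genes of the airway epithelium were followed in the lungs of mice bearing breast tumours. The genes were chosen by symbol alone: Foxj1 and every gene of the platform annotation whose symbol starts with Dnah, Dnai, Dnaaf, Rsph, Tekt, Cfap or Spag and a digit. This gave 62 of the 18194 genes that had a probe set with 1 gene symbol, on 100 probe sets. Of the 62 genes, 23 lay in the upper 60% of mean level and were tested, and 39 lay under that filter. No gene matched Dnai, because the platform names those dynein intermediate chains Dnaic1 and Dnaic2.

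The 14 arrays measured RNA of whole lungs of BALB/c mice in 3 groups. In 4 samples, cells of the metastatic mouse breast carcinoma line 4T1 had been placed into the fourth mammary fat pad, and in 5 samples cells of the non-metastatic line 67NR. The 5 normal samples came from naive mice that got only PBS. Lungs of tumour-bearing mice were collected on day 6 or once a tumour measured around 50 mm3. No day of collection is recorded here for the normal lungs. Blood was flushed out of the lung vessels by PBS. The metastatic and the non-metastatic class are each represented by 1 cell line, and the ability to spread cannot be told apart from other traits of the lines. Whether every sample is a different mouse is not stated in the labels, and the p-values then cover only the spread between samples, which may be technical.

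A motile cilium is a hair-like extension built on a ring of microtubule doublets, the axoneme. Dynein arms on the doublets make it bend, radial spokes and a central apparatus regulate the beat, and tektins stiffen the doublets. In the conducting airways the cilia of multiciliated cells move mucus upwards, and loss of many of these proteins causes primary ciliary dyskinesia. Foxj1, together with RFX transcription factors, switches on the genes of motile cilia. RFX factors bind a DNA element called the X-box, and Foxj1 belongs to the forkhead family.

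Promoters of 51 of the 62 genes were found in the RefSeq table of mouse build GRCm38.p6, and the 250 bases before each annotated start were searched on both strands. The X-box was spelled as GTTNCC and GGNAAC with 2 bases of any kind between them. It occurred in promoters of 3 of the 51 genes (5.88%), against 0.444% of all 27025 genes with a promoter sequence. A shorter form, GTTNCCATG, occurred in 4 of 51 (7.84%), against 1.80% of all. The forkhead letters TGTTTAC also occurred in 4 of 51 (7.84%), against 3.54% of all. Over all promoters, 37 genes held both the X-box and its shorter form. The 3 promoters with the full X-box are shown first, followed by those of Cfap20 and Cfap43, the 2 tested genes with a shorter motif, of which Cfap20 held both the shorter X-box and the forkhead letters. Each is printed 5′ to 3′ on the strand of the gene with the motifs in capitals, the X-box in the first 3, the shorter X-box and then the forkhead letters (read on the other strand) in Cfap20 and the forkhead letters (on the other strand) in Cfap43.
Cfap298, chr16:90934991-90935070, minus strand: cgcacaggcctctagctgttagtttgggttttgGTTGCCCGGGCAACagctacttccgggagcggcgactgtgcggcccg
Cfap20dc, chr14:8666346-8666425, minus strand: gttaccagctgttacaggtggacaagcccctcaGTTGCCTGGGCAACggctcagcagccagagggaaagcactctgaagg
Dnaaf6, chr1:31222747-31222826, plus strand: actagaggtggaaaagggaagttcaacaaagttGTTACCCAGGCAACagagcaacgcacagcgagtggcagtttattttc
Cfap20, chr8:95435035-95435109, minus strand: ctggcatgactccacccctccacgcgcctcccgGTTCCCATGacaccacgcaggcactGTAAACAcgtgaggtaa
Cfap43, chr19:47837377-47837449, minus strand: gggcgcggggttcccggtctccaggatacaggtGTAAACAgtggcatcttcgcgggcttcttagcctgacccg
The X-box of Cfap298 began 188 bases before the annotated start, that of Cfap20dc 102 bases and that of Dnaaf6 59 bases before it. Cfap298, Cfap20 and Cfap43 were tested, whereas Cfap20dc and Dnaaf6 lay under the level filter. A match describes the letters and does not show that a factor binds there.

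No motile cilia gene passed the test in any comparison. In 4T1 against normal lungs, 0 of 23 genes passed limma at an adjusted p under 0.05, while 0.412% of all 10916 genes tested did. At an unadjusted p under 0.05 there were 5 cilia genes, against 6.56% of all genes. Of the 5, 1 was higher in 4T1 lungs, against 3.58% of all genes, and 4 were lower, against 2.98%. Negative differences were found for 15 of 23 genes, against 50.5% of all genes tested. The median log2 difference of the 23 genes was -0.076, against -0.00077 over all genes tested. Over the 27 alternative settings of the analysis this median ran from -0.11 to -0.014.

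In 67NR against normal lungs, 0 of 23 genes passed limma, as did 0% of all genes tested. At an unadjusted p under 0.05 there were 3 cilia genes, against 9.13% of all genes. All 3 were lower in 67NR lungs, against 4.52% of all genes. Negative differences were found for 16 of 23 genes, against 50.4% of all genes tested. The median log2 difference was -0.053, against -0.0010 over all genes. Over the alternative settings it ran from -0.093 to -0.016. The 4T1 and 67NR comparisons share the normal arrays, and their medians are not independent.

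In 4T1 against 67NR lungs, 0 of 23 genes passed limma, against 0.76% of all genes tested. At an unadjusted p under 0.05 there were 2 cilia genes, against 12.4% of all genes. Both were lower in 4T1 lungs, against 6.22% of all genes. Negative differences were found for 11 of 23 genes, against 50.4% of all genes tested. The median log2 difference was 0.0055, against -0.00079 over all genes. Its sign turned with the setting, over a range of -0.033 to 0.071.

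All 23 differences were smaller than 0.25 on the log2 scale in each of the 3 comparisons. The 95% interval lay within 0.5 on either side of 0 for 22 of the 23 genes in each comparison, the exception being Cfap61. In whole lung, fewer ciliated cells and less RNA per ciliated cell cannot be told apart.

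**Figure D1:**
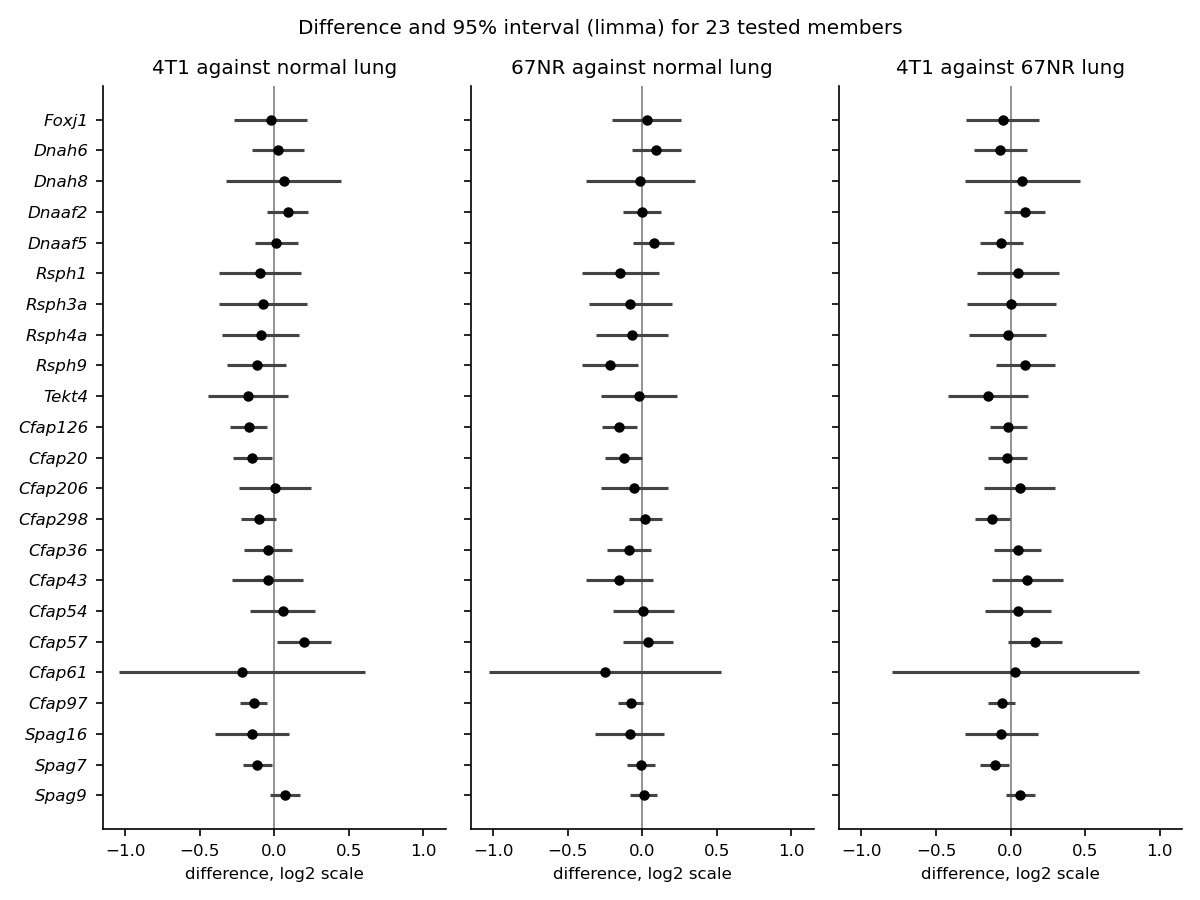
Log2 difference (points) with its 95% interval (lines) from limma for the 23 tested genes, in 4T1 against normal, 67NR against normal and 4T1 against 67NR lungs. Every point lies within 0.25 of 0, and only Cfap61 has an interval that reaches beyond 0.5.

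Array medians of the deposited intensities ran from 113.2 to 115.0 in 4T1, 113.3 to 115.6 in 67NR and 114.3 to 116.1 in normal lungs. All normal lungs except replicate 3 had a higher median than every lung of the other groups. The control ratio of the 3′ to the 5′ end of Gapdh ran from -0.58 to -0.36 on the log2 scale, with values of the 3 groups interleaved. Markers of airway secretory cells were present in all groups, and Scgb1a1, the main secretory protein of club cells, had a mean level of 13.71 ± 0.17 in 4T1, 13.74 ± 0.17 in 67NR and 13.77 ± 0.16 in normal lungs (log2, SD, n = 4, 5 and 5). Of 14 tested neutrophil markers, 10 passed as higher in 4T1 than in normal lungs, 0 in 67NR against normal lungs, and 11 in 4T1 against 67NR lungs (limma). The summed signal of those markers ran from 14.86 to 15.31 in 4T1, 13.20 to 13.70 in 67NR and 13.02 to 13.59 in normal lungs on the log2 scale, and their part in the cilia values was not tested.

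Foxj1, the master transcription factor of motile ciliogenesis, differed between the groups by less than the spread of the normal lungs. On the scale of log2(intensity + 16), used for every level here, it read 8.67, 8.46, 8.70 and 8.77 in the 4T1 lungs. The 67NR lungs gave 8.67, 8.60, 8.79, 8.84 and 8.60, and the normal lungs 8.41, 8.57, 9.12, 8.67 and 8.60. Both the lowest and the highest of the 14 values were normal lungs, replicates 1 and 3, so the normal range enclosed the other groups. The means were 8.65 ± 0.13 in 4T1, 8.70 ± 0.11 in 67NR and 8.67 ± 0.26 in normal lungs (SD, n = 4, 5 and 5). The log2 difference was -0.023 (95% interval -0.27 to 0.22) for 4T1 against normal and 0.030 (95% interval -0.20 to 0.26) for 67NR against normal lungs, with limma adjusted p of 0.996 and 0.955. For 4T1 against 67NR lungs it was -0.053 (95% interval -0.30 to 0.19), adjusted p 0.902 by limma.

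**Figure D2:**
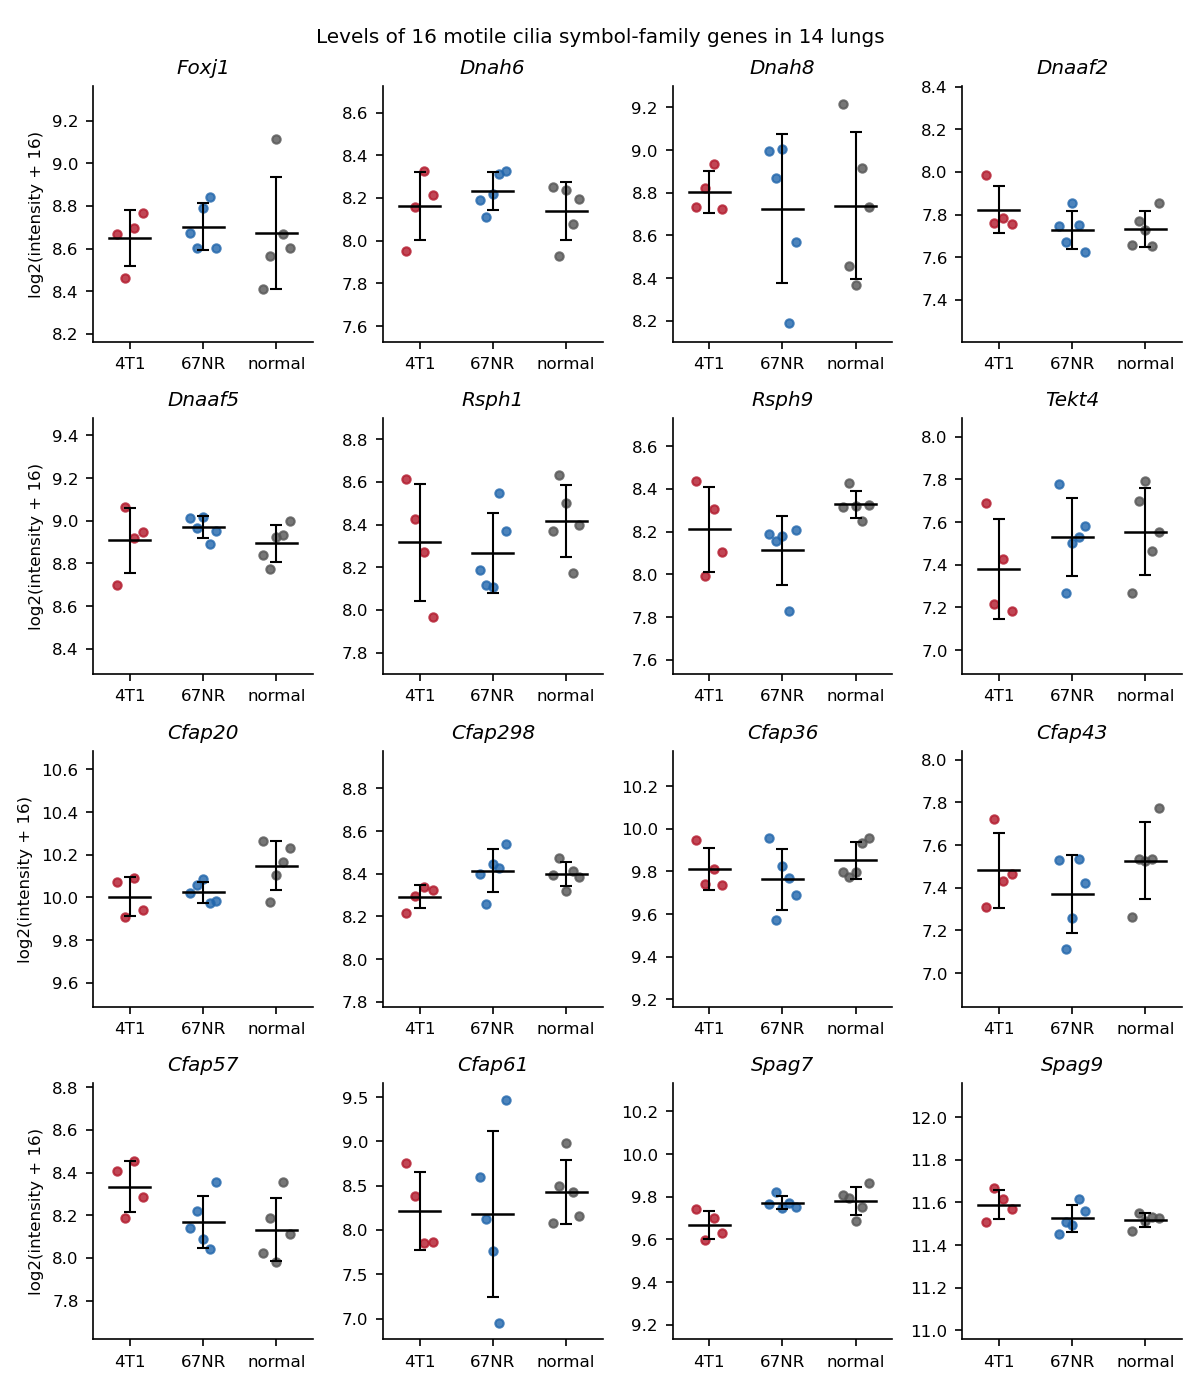
Level on the scale of log2(intensity + 16) in each lung (points) with the group mean and SD (bars) for 16 cilia genes, in 4T1, 67NR and normal lungs from left to right. Foxj1 runs from 8.41 to 9.12, both in normal lungs, and Cfap61 has the widest range, 6.95 to 9.47, both in 67NR lungs.

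Dynein heavy chains are the motors of the arms, and of 10 such genes 2 were tested. Dnah6, an inner arm chain, read 7.95, 8.16, 8.33 and 8.22 in 4T1 lungs. Values in 67NR lungs were 8.19, 8.11, 8.22, 8.31 and 8.33, and in normal lungs 8.25, 7.93, 8.24, 8.08 and 8.20. All 3 groups overlapped, with 1 low lung each in the 4T1 and normal groups. For Dnah6 the log2 difference was 0.025 for 4T1 against normal lungs, 0.094 for 67NR against normal lungs and -0.069 for 4T1 against 67NR lungs (limma adjusted p 0.993, 0.765 and 0.795).

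Dnah8, an outer arm chain best known from sperm, read 8.73, 8.82, 8.94 and 8.72 in 4T1 lungs. It was 8.995, 8.87, 9.01, 8.19 and 8.57 in 67NR and 9.21, 8.46, 8.37, 8.92 and 8.74 in normal lungs. The 4T1 lungs lay close together inside the wide ranges of the other groups, and its spread within groups, 0.30 (SD), was larger than that of 96.0% of the genes tested. For Dnah8 the log2 difference was 0.065 for 4T1 against normal lungs, -0.013 for 67NR against normal lungs and 0.078 for 4T1 against 67NR lungs (limma adjusted p 0.992, 0.989 and 0.911).

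Dynein arm assembly factors fold the arms in the cytoplasm before they enter the cilium, and 2 of 5 were tested. Dnaaf2 read 7.99, 7.76, 7.78 and 7.76 in 4T1 lungs. Levels in 67NR lungs were 7.74, 7.67, 7.85, 7.75 and 7.62, and in normal lungs 7.66, 7.77, 7.73, 7.65 and 7.85. One 4T1 lung, replicate 1, stood above all others, and the remaining 4T1 lungs lay inside the normal range. For Dnaaf2 the log2 difference was 0.090 for 4T1 against normal lungs, -0.0038 for 67NR against normal lungs and 0.094 for 4T1 against 67NR lungs (limma adjusted p 0.916, 0.991 and 0.597). The gene has another probe set, not kept, with a mean of 7.45, that did not share the high value. It read 7.48 in 4T1 replicate 1, within the 7.19 to 7.60 of the other 4T1 lungs. It differed by -0.027 in 4T1 against normal and by 0.0054 in 4T1 against 67NR lungs.

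Dnaaf5 read 8.70, 9.06, 8.92 and 8.95 in 4T1 lungs. Its 67NR lungs gave 9.01, 8.96, 9.02, 8.89 and 8.95, and its normal lungs 8.84, 8.77, 8.92, 8.93 and 8.996. The 4T1 group held both the lowest and the highest value. For Dnaaf5 the log2 difference was 0.014 for 4T1 against normal lungs, 0.076 for 67NR against normal lungs and -0.062 for 4T1 against 67NR lungs (limma adjusted p 0.996, 0.768 and 0.773).

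Radial spokes reach from the doublets to the central apparatus. Of 6 radial spoke genes 4 were tested, none passed, and all 4 had negative differences in both tumour groups against normal lungs. Their log2 differences ran from -0.12 to -0.076 in 4T1 and from -0.22 to -0.070 in 67NR against normal lungs. Rsph9, a spoke head protein, read 8.44, 7.99, 8.31 and 8.10 in 4T1 lungs. Levels were 8.19, 8.16, 8.18, 7.83 and 8.21 in 67NR and 8.32, 8.43, 8.32, 8.25 and 8.33 in normal lungs. Every 67NR lung lay below every normal lung, and 67NR replicate 4 was well below the rest of its group. This was the 1 of 23 cilia genes whose groups did not overlap in that comparison, and it was lower, against 0.797% of all genes tested. For Rsph9 the log2 difference was -0.12 for 4T1 against normal lungs, -0.22 for 67NR against normal lungs and 0.098 for 4T1 against 67NR lungs (limma adjusted p 0.939, 0.493 and 0.73).

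Rsph1, another spoke head protein, read 8.61, 8.43, 8.27 and 7.96 in 4T1 lungs. It gave 8.19, 8.12, 8.11, 8.55 and 8.37 in 67NR and 8.37, 8.63, 8.50, 8.18 and 8.40 in normal lungs. The groups overlapped, and 4T1 replicate 4 was the lowest of all lungs. For Rsph1 the log2 difference was -0.097 for 4T1 against normal lungs, -0.15 for 67NR against normal lungs and 0.052 for 4T1 against 67NR lungs (limma adjusted p 0.974, 0.763 and 0.919). The other tested members were Rsph3a, a spoke stalk protein, and Rsph4a, a spoke head protein, with mean levels of 8.10 and 7.42. Rsph3a has another probe set, not kept, with a mean of 4.47.

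Tektins form filaments inside the doublets, and Tekt4 was the 1 tested gene of 5. It read 7.69, 7.22, 7.43 and 7.18 in 4T1 lungs. Corresponding values were 7.78, 7.27, 7.50, 7.53 and 7.58 in 67NR and 7.27, 7.70, 7.79, 7.46 and 7.56 in normal lungs. The groups overlapped, and the 2 lowest values were 4T1 lungs. For Tekt4 the log2 difference was -0.18 for 4T1 against normal lungs, -0.025 for 67NR against normal lungs and -0.15 for 4T1 against 67NR lungs (limma adjusted p 0.918, 0.969 and 0.681).

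The Cfap symbols cover cilia and flagella associated proteins of many kinds, and 10 of 25 were tested. Cfap20, which joins the tubules of a doublet, read 10.07, 9.91, 10.09 and 9.94 in 4T1 lungs. It read 10.02, 10.06, 10.09, 9.97 and 9.98 in 67NR and 10.27, 9.98, 10.10, 10.17 and 10.23 in normal lungs. Most normal lungs were above the tumour groups, but normal replicate 2 lay among them. For Cfap20 the log2 difference was -0.15 for 4T1 against normal lungs, -0.13 for 67NR against normal lungs and -0.021 for 4T1 against 67NR lungs (limma adjusted p 0.678, 0.536 and 0.935). The unadjusted p was 0.0309 and 0.0468 against normal lungs for 4T1 and 67NR, in this order. The gene has another bright probe set, not kept, with a mean of 9.63. It was lower by a similar amount in 4T1 against normal lungs, at -0.17, but differed by only -0.036 in 67NR against normal lungs. In 4T1 against 67NR lungs it differed by -0.14.

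Cfap36 read 9.95, 9.74, 9.81 and 9.74 in 4T1 lungs. Its values were 9.95, 9.57, 9.83, 9.77 and 9.69 in 67NR and 9.80, 9.77, 9.80, 9.93 and 9.96 in normal lungs. The groups overlapped, with the lowest value in 67NR replicate 2. For Cfap36 the log2 difference was -0.042 for 4T1 against normal lungs, -0.090 for 67NR against normal lungs and 0.047 for 4T1 against 67NR lungs (limma adjusted p 0.98, 0.748 and 0.859).

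Cfap298, needed for dynein arm assembly and carrier of the first X-box shown above, read 8.21, 8.30, 8.34 and 8.32 in 4T1 lungs. It was 8.40, 8.26, 8.45, 8.43 and 8.54 in 67NR and 8.39, 8.47, 8.32, 8.41 and 8.38 in normal lungs. The 4T1 lungs sat at the lower end, overlapping both other groups. For Cfap298 the log2 difference was -0.10 for 4T1 against normal lungs, 0.018 for 67NR against normal lungs and -0.12 for 4T1 against 67NR lungs (limma adjusted p 0.846, 0.941 and 0.382). The next brightest probe set of the gene, with a mean of 7.52, did not share the lower 4T1 level. It differed by 0.084 in 4T1 against normal and by -0.021 in 4T1 against 67NR lungs.

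Cfap57, which helps to place inner dynein arms in protists, was the 1 gene of the 23 tested with a positive difference at an unadjusted p under 0.05. It read 8.41, 8.19, 8.45 and 8.28 in 4T1 lungs. Levels of 8.14, 8.22, 8.09, 8.04 and 8.35 were found in 67NR and of 8.02, 8.19, 7.98, 8.35 and 8.11 in normal lungs. All groups overlapped, since 1 lung each of the 67NR and normal groups reached 8.35. For Cfap57 the log2 difference was 0.20 for 4T1 against normal lungs, 0.037 for 67NR against normal lungs and 0.16 for 4T1 against 67NR lungs (limma adjusted p 0.678, 0.921 and 0.455). Over the alternative settings the difference in 4T1 against normal lungs ran from 0.025 to 0.26. The gene has another, dimmer probe set, with a mean of 6.52, that went the other way. It differed by -0.15 in 4T1 against normal and by -0.16 in 4T1 against 67NR lungs. Across the lungs it correlated with the kept one at r = -0.62.

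Cfap43, known from the sperm flagellum and carrier of the forkhead letters shown above, read 7.31, 7.72, 7.43 and 7.46 in 4T1 lungs. It read 7.53, 7.11, 7.26, 7.53 and 7.42 in 67NR and 7.26, 7.53, 7.53, 7.53 and 7.77 in normal lungs. The groups overlapped throughout. For Cfap43 the log2 difference was -0.044 for 4T1 against normal lungs, -0.15 for 67NR against normal lungs and 0.11 for 4T1 against 67NR lungs (limma adjusted p 0.991, 0.704 and 0.748).

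Cfap61, a protein at the base of the radial spokes, had the largest differences of all 23 genes against normal lungs and the largest error. It read 8.76, 8.38, 7.85 and 7.86 in 4T1 lungs. The 67NR lungs gave 8.60, 8.12, 7.76, 6.95 and 9.47 and the normal lungs 8.08, 8.50, 8.99, 8.43 and 8.15. Both extremes were 67NR lungs, replicates 4 and 5, and the within-group SD of 0.65 exceeded that of 99.5% of the genes tested. The log2 difference was -0.22 (95% interval -1.04 to 0.61) for 4T1 and -0.25 (95% interval -1.03 to 0.53) for 67NR against normal lungs, with limma adjusted p of 0.98 and 0.879. For 4T1 against 67NR lungs it was 0.033 (95% interval -0.79 to 0.86), adjusted p 0.986 by limma. The gene has 3 probe sets, and the 2 that were not kept ranged over 0.95 and 0.49 across the 14 lungs, against 2.51 for the kept one. Across the lungs they correlated with the kept probe set at r = -0.16 and -0.39, as a description.

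**Figure D3:**
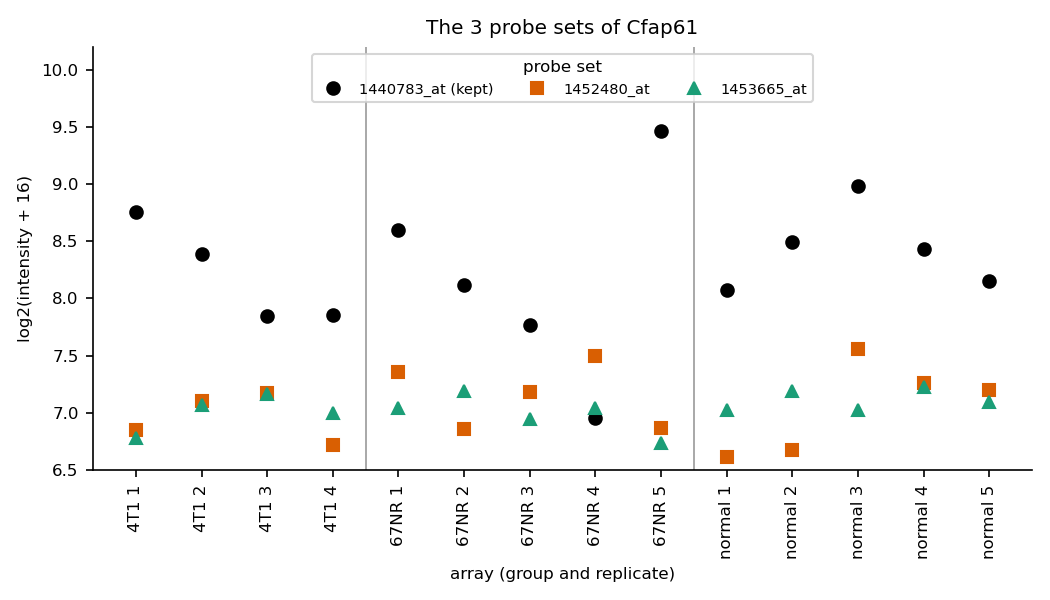
Level on the scale of log2(intensity + 16) of the 3 probe sets of Cfap61 in each lung, with 4T1, 67NR and normal lungs from left to right. The kept probe set spreads from 6.95 to 9.47 within the 67NR lungs, while the other probe sets range over 0.95 and 0.49 across all lungs.

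Cfap97 and Cfap126 are named because their adjusted p was the smallest in a comparison, a choice made after their values were seen. Cfap97 read 9.53, 9.36, 9.49 and 9.44 in 4T1 lungs. It was 9.55, 9.51, 9.46, 9.48 and 9.57 in 67NR and 9.61, 9.58, 9.59, 9.62 and 9.56 in normal lungs. Every 4T1 lung lay below every normal lung, the 1 such gene of 23 in that comparison, and 1.32% of all genes tested were lower in this way. The log2 difference was -0.14 (95% interval -0.23 to -0.048), unadjusted p 0.00539 and adjusted p 0.372 by limma. Cfap126, also called Flattop and involved in positioning basal bodies, differed by -0.15 (95% interval -0.27 to -0.037) in 67NR and by -0.17 (95% interval -0.29 to -0.045) in 4T1 against normal lungs, with limma adjusted p of 0.414 and 0.489.

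The Spag symbols, for sperm associated antigens, mix axonemal and other proteins, and 3 of 10 were tested. Spag9 is a scaffold of the JNK kinase pathway and no axonemal part. It read 11.51, 11.67, 11.62 and 11.57 in 4T1 lungs. Levels were 11.45, 11.51, 11.49, 11.62 and 11.56 in 67NR and 11.47, 11.55, 11.51, 11.53 and 11.52 in normal lungs. These ranges overlapped and were narrow. For Spag9 the log2 difference was 0.073 for 4T1 against normal lungs, 0.0084 for 67NR against normal lungs and 0.064 for 4T1 against 67NR lungs (limma adjusted p 0.896, 0.971 and 0.616).

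Spag7, not known as an axonemal part, had the smallest adjusted p of the 23 genes in 4T1 against 67NR lungs. It read 9.74, 9.60, 9.70 and 9.63 in 4T1 lungs. Values of 9.77, 9.82, 9.75, 9.77 and 9.75 were measured in 67NR and of 9.81, 9.79, 9.69, 9.75 and 9.87 in normal lungs. Every 4T1 lung lay below every 67NR lung, the 1 such gene of 23, and 2.22% of all genes tested were lower in this way. For Spag7 the log2 difference was -0.11 for 4T1 against normal lungs, -0.0090 for 67NR against normal lungs and -0.11 for 4T1 against 67NR lungs (limma adjusted p 0.646, 0.969 and 0.362). Spag16, a protein of the central apparatus, was the other tested member and differed by -0.15 (95% interval -0.39 to 0.099) in 4T1 against normal lungs (limma adjusted p 0.938). Of 4 genes with Spag symbols that were set apart here as not axonemal, a choice of this report, Spag9 and Spag7 were tested. Spag4 and Spag5, a nuclear envelope and a spindle protein, lay under the filter. Without all 4, 58 genes remained, of which 21 were tested and 0 passed limma in each comparison. Their unadjusted counts were 4, 3 and 1 for 4T1 against normal, 67NR against normal and 4T1 against 67NR lungs. The shares of all genes tested were 6.56%, 9.13% and 12.4% in that order.

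The 39 genes under the level filter were read off a fit of all 18194 genes without the filter, in which 0 of 62 cilia genes passed limma in each comparison. Their median log2 differences were -0.033 for 4T1 against normal, -0.044 for 67NR against normal and -0.036 for 4T1 against 67NR lungs. Of all genes in that fit, 0.275%, 0.0055% and 0.335% passed in the same order of comparisons. At an unadjusted p under 0.05 there were 2, 0 and 3 of these 39 genes, against 5.67%, 5.55% and 6.1% of all 7278 genes under the level filter. Differences ran widest in 4T1 against 67NR lungs, between -0.73 for Rsph6a, a spoke head protein of sperm, and 0.96 for Cfap47. Cfap47, named after its values were seen, read 5.60, 5.79, 5.11 and 6.12 in 4T1, 4.24, 5.22, 4.64, 4.48 and 4.87 in 67NR and 5.26, 5.44, 4.52, 5.53 and 5.02 in normal lungs. The 4T1 lungs overlapped the 67NR lungs, since 67NR replicate 2 exceeded 4T1 replicate 3, and the limma adjusted p without the filter was 0.172.

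Over all 62 genes, normal replicate 3 was the highest of the 14 lungs for 13 and 67NR replicate 2 the lowest for 15, followed by 4T1 replicate 4 with 12, counts to which the 39 genes under the level filter contributed most. Among the 23 tested genes the highest value lay in normal replicate 3 for 5 and for 4 each in normal replicate 5 and 4T1 replicate 3. The lowest were in 67NR replicate 2 for 5 and in 4T1 replicate 4 for 4 of the 23. Their mean deviation from the gene means was 0.11 in normal replicate 3 and 0.088 in normal replicate 5, against -0.10 in 67NR replicate 2 and -0.11 in 4T1 replicate 4. Over 38 tested genes of motile cilia under other symbols, it was 0.13 in normal replicate 3 and 0.089 in normal replicate 5, with -0.092 in 67NR replicate 2, -0.063 in 4T1 replicate 4 and -0.086 in normal replicate 1. Over 14 airway secretory genes the order of the lungs was another one, from -0.37 in normal replicate 1 to 0.23 in 67NR replicate 1. In these genes 67NR replicate 2 had a mean deviation of -0.13 but a median deviation of 0.14, the highest median of the 14 lungs, and normal replicate 3 a mean of 0.19 and a median of 0.14.

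**Figure D4:**
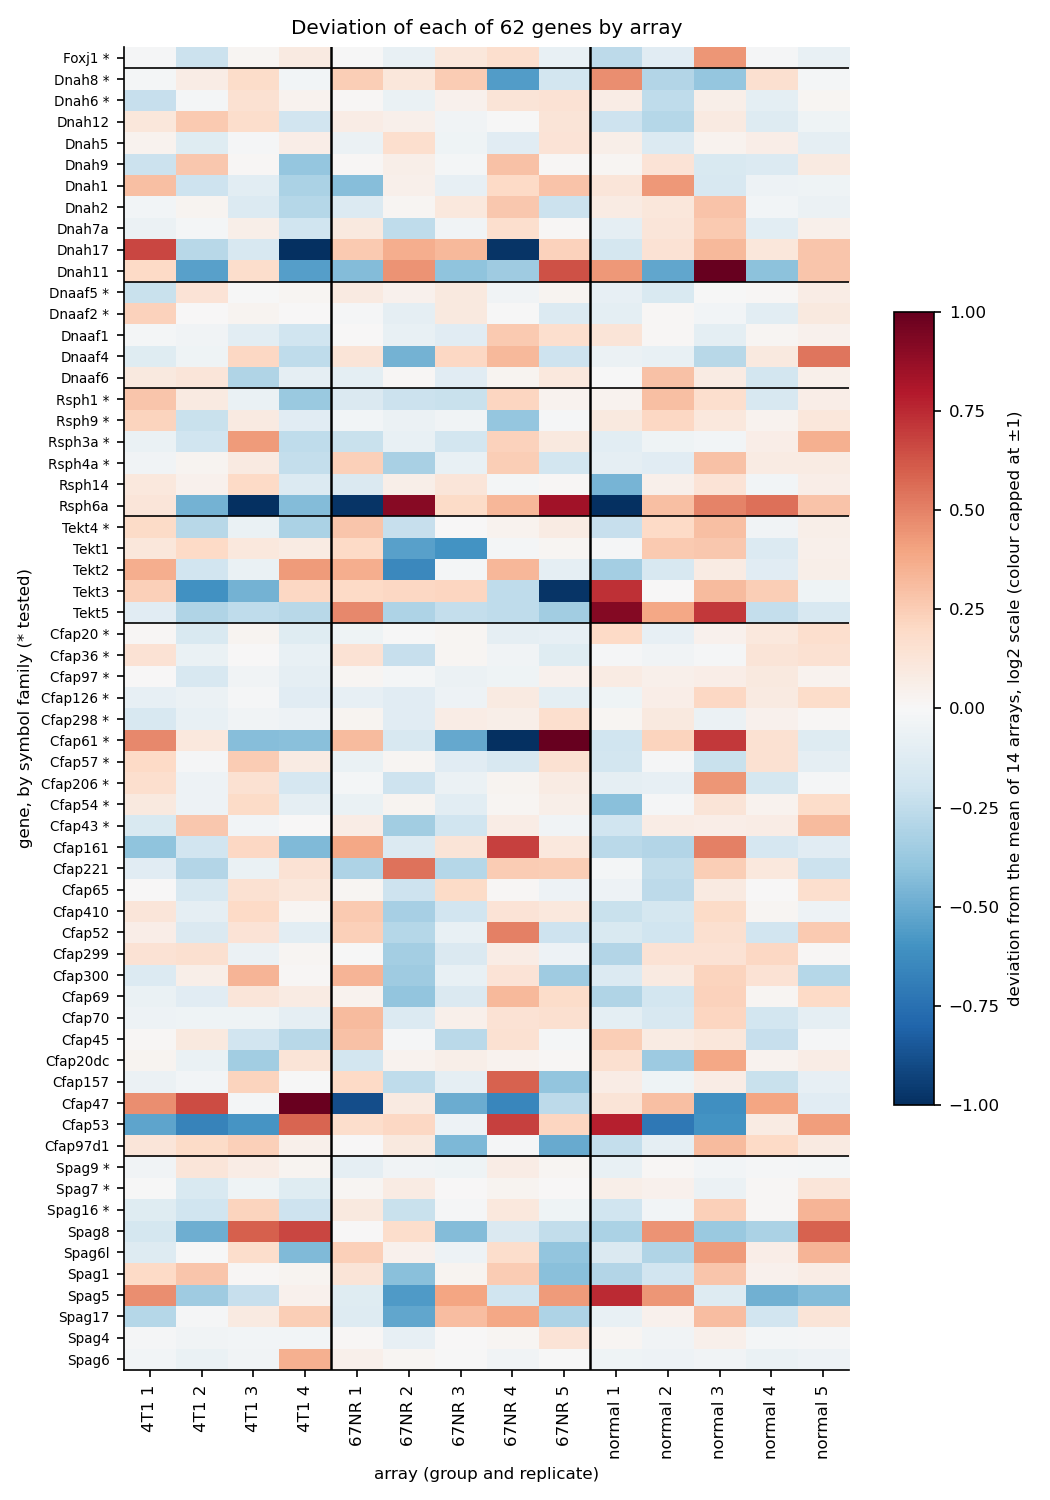
Deviation of each of the 62 genes from its mean over the 14 lungs (colour, log2 scale, capped at 1 on either side), with 4T1, 67NR and normal lungs from left to right and tested genes marked by an asterisk. Normal replicate 3 is the highest lung for 13 genes and 67NR replicate 2 the lowest for 15.

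Whether the genes followed Foxj1 from lung to lung was examined over all 14 arrays. Of the 22 other tested genes, 13 correlated positively with Foxj1, the median r was 0.042, and r ran from -0.54 for Dnah8 to 0.62 for Cfap206. In a two-sided permutation test with 100000 resamples, 0 of 22 passed after Benjamini-Hochberg adjustment for Pearson's r or Spearman's rho, and 2 were under 0.05 unadjusted for r and 0 for rho. Cfap206, a radial spoke protein, had r = 0.62 (permutation p = 0.0279, adjusted 0.413) and rho = 0.45 (permutation p = 0.113, adjusted 0.75). Without normal replicates 3 and 1, the lungs farthest from the median of Foxj1, its r was 0.080, so the relation rests on those lungs. For Dnah8, r was -0.54 (permutation p = 0.0484, adjusted 0.413) with rho -0.29 (permutation p = 0.317, adjusted 0.865), and -0.16 without the same lungs. With deviations from the group means, r was 0.65 for Cfap206 and -0.53 for Dnah8. Including the dim genes, 41 of 61 correlations were positive with a median r of 0.14. Of the 61, 5 were under 0.05 unadjusted for r and 8 for rho, and 0 passed after adjustment for r or rho. Tekt2, a tektin under the level filter named after its values were seen, had the smallest p for rho, with rho = 0.74 (permutation p = 0.00364, adjusted 0.197) and r = 0.47 (permutation p = 0.0871, adjusted 0.379), and r was 0.55 without normal replicates 3 and 1.

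**Figure D5:**
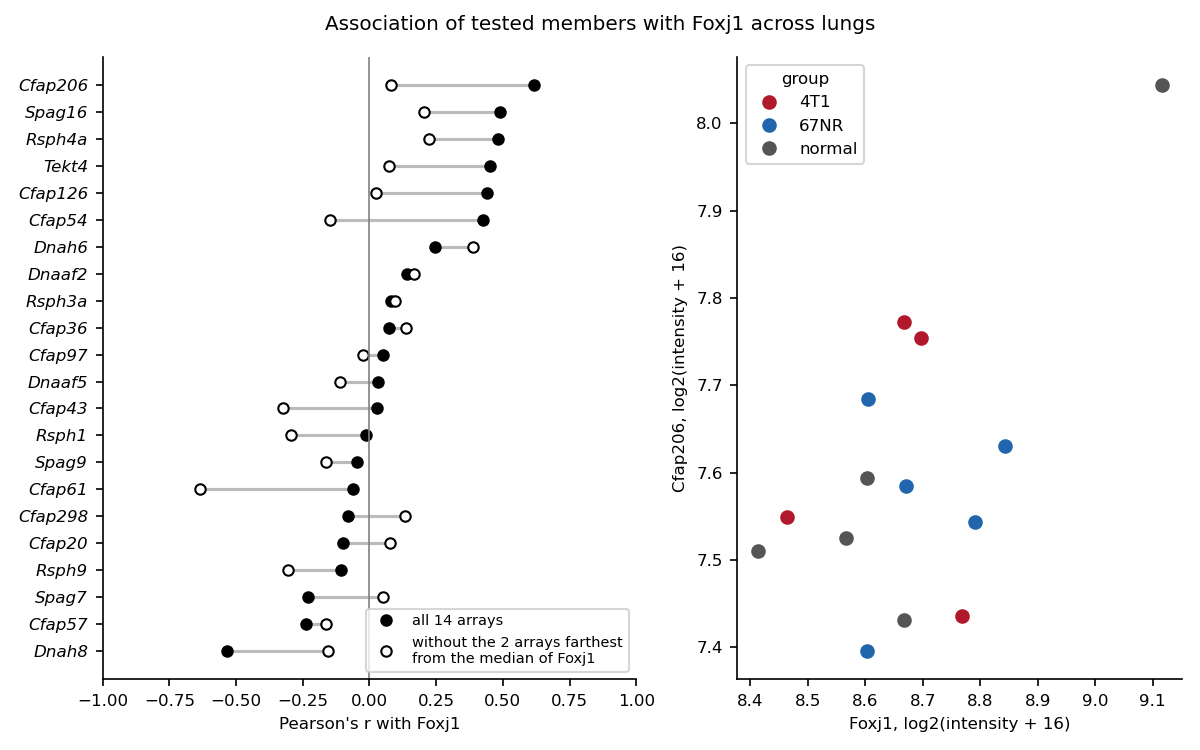
Left, Pearson's r with Foxj1 across lungs for the 22 other tested genes, over all 14 arrays (filled) and without the 2 arrays farthest from the median of Foxj1 (open); right, the level of Cfap206 against that of Foxj1 on the scale of log2(intensity + 16). Cfap206 falls to r = 0.080 from 0.62 without those arrays, and the single lung at the upper right is normal replicate 3.

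Other genes of the motile cilium gave the same count. Of 98 listed, 80 had a value, 38 were tested, and 0 passed limma in each comparison. At an unadjusted p under 0.05 there were 3, 5 and 1 for 4T1 against normal, 67NR against normal and 4T1 against 67NR lungs. The shares of all genes tested were 6.56%, 9.13% and 12.4%. Median log2 differences of the 38 genes were -0.031, -0.035 and -0.011 in that order. Tubb4b, a tubulin of the axoneme that other cells also use, averaged 12.38 ± 0.07 in 4T1, 12.49 ± 0.05 in 67NR and 12.47 ± 0.05 in normal lungs (SD, n = 4, 5 and 5), with limma adjusted p of 0.316 for 4T1 against 67NR lungs. In 4T1 against normal lungs Tubb4b differed by -0.098. The other brightest genes of the list, Tuba1a, Sec14l3 and Tppp3, differed there by -0.069, 0.0021 and 0.0059. Of the 30 genes of intraflagellar transport, which carries cargo along motile and primary cilia alike, 29 were tested and 0 passed in each comparison. Their unadjusted counts were 1, 0 and 2, against 6.56%, 9.13% and 12.4% of all genes tested. In 4T1 against normal lungs 24 of 29 differences were negative, against 50.5% of all genes tested, with a median of -0.048. Such a lean was not particular to cilia, since 12 of 14 alveolar type 2 genes were negative there, with a median of -0.064. Of 13 alveolar type 1 genes, 3 were negative. Airway secretory genes gave 0 of 14 past limma in each comparison. Their log2 differences ran from -0.42 to 0.95 in 4T1 against normal lungs, with 7 positive and 7 negative. They ran from -0.46 to 0.35 in 67NR against normal and from -0.48 to 1.22 in 4T1 against 67NR lungs. At an unadjusted p under 0.05 there were 0, 1 and 0, against 6.56%, 9.13% and 12.4% of all genes tested.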

How the data were processed

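Lung RNA of 14 samples was measured on Affymetrix mouse arrays, 1 per sample. Biotin-labelled cRNA was made from 3 µg of RNA, per the labels' protocols. The deposited table gives linear intensities for 45101 probe sets. For these intensities, background correction and normalisation by the authors are not given in the sources used here. Detection calls were not used here, so dim probe sets may hold only background. Precision is limited by the number of arrays.

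Genes were named through the platform annotation of 2016. The 932 probe sets with several symbols (3 of them with a symbol of the cilia families) and the 9211 unnamed here were left out. Levels are log2(intensity + 16), computed here from the deposited intensities, which understates changes of dim genes. Per gene the probe set with the highest mean was kept, and the upper 60% of 18194 genes, with a mean above 7.35, were tested. Group means were fitted to the 14 arrays jointly (limma 3.58.1, R 4.3.3, 11 residual degrees of freedom). P-values are two-sided with Benjamini-Hochberg adjustment over 10916 genes, with a threshold of 0.05. Permutation tests used numpy 2.4.6 in Python 3.11.15, with ranks and adjustment from scipy 1.17.1. The steps were tested on simulated data.

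Genes given with every array were Foxj1, the 2 tested genes with the highest mean in each symbol family, any gene past the threshold, and the 3 largest log2 changes per comparison. Cilia genes, comparison lists and tests were chosen with earlier results of these data known. Promoter sequences are from RefSeq, build GRCm38.p6. Alternatives covered normalisation, filter, offset, probe sets per gene, variance model, samples in the fit, a replicate block and leaving out arrays.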

Additional observations from a re-analysis of the deposited data

Results flagged for a closer look

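In 2 of 48 gene and group combinations examined, a single lung lay far from the rest of its group, where chance gives about 1 in 20. Dnaaf2 read 7.99 in 4T1 replicate 1, while the other 4T1 lungs lay between 7.76 and 7.78. The probe set of Dnaaf2 that was not kept read 7.48 in that lung, within the 7.19 to 7.60 of the other 4T1 lungs. Rsph9 read 7.83 in 67NR replicate 4, while the other 67NR lungs lay between 8.16 and 8.21. The cause of either value was not tested.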

How the results depend on the processing

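The count of cilia genes past the threshold stayed 0 in each comparison under all 27 alternatives, with limma adjusted p no lower than 0.160 in 4T1 against normal, 0.319 in 67NR against normal and 0.172 in 4T1 against 67NR lungs. The count of genes associated with Foxj1 stayed 0 under 21 alternatives, with adjusted p no lower than 0.191. Leaving out normal replicate 3 and 67NR replicate 4 together, and including all 61 genes in the Foxj1 association, were chosen after seeing the data. The median difference of the tested genes in 4T1 against normal lungs was -0.014 with probe sets of a gene averaged. In 4T1 against 67NR lungs it ran from -0.033 to 0.071 when single lungs were left out, the highest value without 4T1 replicate 4. Deviations of same-numbered samples from their group means correlated at -0.34 to 0.22 over pairs. Differently numbered samples were not compared, so these values cannot decide whether the numbers pair the samples. With a replicate block the count was 0 in each comparison, and the median difference was -0.044 in 4T1 against normal, -0.053 in 67NR against normal and 0.051 in 4T1 against 67NR lungs.

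Differences that were not called turned sign for some genes under some settings, and the cause was not tested. With median centring they were 0.00678 for Dnaaf2 and 0.00159 for Spag7 in 67NR against normal lungs. With probe sets of a gene averaged they were -0.00505 for Spag9 in 4T1 against normal lungs, -0.0278 for Spag9 in 67NR against normal lungs, and -0.0493 for Cfap61 in 4T1 against 67NR lungs. With array weights they were -0.0284 for Dnah8 and 0.0274 for Foxj1 in 4T1 against normal lungs, -0.00362 for Cfap57, 0.0256 for Dnaaf2, -0.00268 for Spag9 and 0.0352 for Tekt4 in 67NR against normal lungs, and -0.00807 for Dnah8 in 4T1 against 67NR lungs. With 67NR replicates 1 and 3 left out they were 0.000981 for Spag7 in 67NR against normal lungs, and -0.0269 for Rsph1 in 4T1 against 67NR lungs. When lungs were left out, ranges in 4T1 against normal lungs were -0.124 to 0.0179 for Cfap43, -0.0376 to 0.0834 for Dnaaf5, -0.0301 to 0.0957 for Dnah6, -0.0270 to 0.184 for Dnah8, -0.0884 to 0.0873 for Foxj1 and -0.195 to 0.0207 for Rsph1. Such ranges in 67NR against normal lungs were -0.0129 to 0.0569 for Cfap298, -0.00930 to 0.0928 for Cfap57, -0.570 to 0.197 for Cfap61, -0.0350 to 0.0265 for Dnaaf2, -0.105 to 0.121 for Dnah8, -0.0354 to 0.140 for Foxj1, -0.0326 to 0.0122 for Spag7, -0.0159 to 0.0273 for Spag9 and -0.0966 to 0.0415 for Tekt4. Those in 4T1 against 67NR lungs were -0.0504 to 0.0104 for Cfap20, -0.274 to 0.354 for Cfap61, -0.113 to 0.00777 for Dnaaf5, -0.124 to 0.00194 for Dnah6, -0.0554 to 0.148 for Dnah8, -0.0926 to 0.00891 for Foxj1 and -0.0465 to 0.170 for Rsph1. The other differences of the 16 genes given with every array kept their sign wherever they had a value, as did those printed for Cfap97, Cfap126 and Spag16. With probe sets averaged, Cfap298, Cfap43, Dnaaf5 and Spag16 fell under the filter and have no value. With the filter at the upper 40% of level, the genes left among these were Cfap20, Cfap36, Cfap97, Cfap126, Dnaaf5, Dnah8, Spag7 and Spag9. Differences of Cfap47 and Rsph6a were read from the fit without a filter alone. Leaving out 67NR replicates 1 and 3 together was chosen from earlier results of these data. With 4 or 5 lungs a group, the 95% intervals give the size of difference that the data allow. Signal over background could not be assessed, since no detection calls were used here.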
